A study of Mus musculus with 8 samples.

Results

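The Myc and Max network was followed through the RNA sequencing of mouse splenic CD4+ T cells as 10 genes, taken as the rows of the deposited table whose symbol was Myc, Mycn, Max, Mxd1, Mxd3, Mxd4, Mxi1, Mnt, Mlx or Pvt1. All 10 symbols were present among the 27179 genes of the table. Of these, 9 passed the filter on low values and were tested among 12605 genes, and Mycn did not pass it. The table holds 8 libraries of mice aged 8 weeks of strain C.Cg-Foxp3tm2Tch/J, an allele all groups share, with 2 libraries in each of 4 groups. Control offspring came from untreated parents and Cd offspring from parents given 10 ppm cadmium in their drinking water. Only the parents were treated with cadmium, so the offspring's cells carry a parental exposure. Unstimulated cells were lysed after sorting (0 hours), and stimulated cells were kept with anti-CD3/CD28 beads for 16 hours, so that stimulation and the time in culture cannot be told apart. The labels give neither the sex of the mice nor whether the libraries numbered 6 and 7 came from separate animals or litters, and p-values may then measure technical spread.

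Myc is a transcription factor that binds DNA as a dimer with Max and raises the expression of genes for growth, metabolism and ribosome production. Max also pairs with the proteins of Mxd1, Mxd3, Mxd4, Mxi1 and Mnt, which recruit histone deacetylase complexes and lower the expression of many of the same genes, so that activators and repressors compete for one partner. Mlx is the Max-like protein that pairs with the glucose-sensing factors Mlxip and Mlxipl and with some of the Mxd proteins. Pvt1 is a long noncoding RNA gene next to Myc that is often amplified together with it in tumours, and in T cells Myc is an early gene of the response to antigen.

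These dimers recognise an E-box, the letters CACGTG, which read the same on both strands. The window from 250 bases before to 50 bases after the start was searched for these letters in the RefSeq promoter table of GRCm38.p6. Mycn, Max, Mxd1, Mxd3, Mxd4, Mxi1, Mnt and Mlx had a window there, and Mxi1 had 3. The letters occurred in the windows of Max, Mxd4, Mnt and Mlx, and not in those of Mycn, Mxd1, Mxd3 or Mxi1. The 4 stretches are shown because they place the letters of the network's own site in genes of the network, read 5′ to 3′ along the strand of the gene, with CACGTG in capitals. The stretch of Max lies at chr12:76962234-76962263 on the minus strand, that of Mxd4 at chr5:34187912-34187941 on the minus strand, that of Mnt at chr11:74830789-74830818 on the plus strand and that of Mlx at chr11:101087238-101087267 on the plus strand.
Max: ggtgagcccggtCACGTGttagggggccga
Mxd4: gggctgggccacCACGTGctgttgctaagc
Mnt: ccccacccaagcCACGTGtgcgcgcgcggt
Mlx: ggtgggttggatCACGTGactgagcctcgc
The letters were held by 7.15% of all 32851 windows and by 10.2% of the 11563 windows of genes tested here. The match of Max began 3 bases before the start that the promoter table uses, and those of Mlx, Mnt and Mxd4 began 40, 123 and 219 bases before it. That start can lie inside the RefSeq span of a gene, as for Mlx, whose span begins at chr11:101086707. A match describes letters only, and whether a factor binds there was not measured in these libraries.

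The libraries held 15542732 to 25486791 reads counted on genes. Levels are given in RPKM, the reads of a gene scaled to its transcript length and to the total reads of its library, which allows a comparison between genes. The 2 libraries of a group correlated over genes at 0.983 to 0.990 (Pearson). The summed RPKM of 6 T cell markers (Cd3d, Cd3e, Cd3g, Cd4, Lck, Thy1) was 2175 to 2347 in unstimulated and 1305 to 1356 in stimulated libraries. That of 4 myeloid markers was 6.23 to 7.80 before and 3.16 to 4.31 after stimulation, with Itgam called lower in both exposures (log2 -2.27 in control offspring). That of 4 CD8 and NK markers was 12.9 to 15.1 before and 10.5 to 12.1 after, with Cd8b1 at 9.40 to 11.7 and Cd8a at most 0.16 in all libraries, and with Klrb1c called lower (log2 -3.83 in control offspring). The B cell gene Cd79a was at 2.87 to 4.73 RPKM and rose by 0.57 in Cd offspring (limma adjusted p = 0.00408), while its 0.41 in control offspring (adjusted p = 0.0178) missed the threshold. The B cell gene Ms4a1 was at 0 in all libraries. The 4 B cell markers summed to 3.12 to 3.76 RPKM before and 4.19 to 4.895 after stimulation. Of these 3 stayed under 1 RPKM in all libraries, among them a gene that was lower after stimulation in both exposures. The 3 erythroid markers summed to 0.365 to 1.72 with Hba-a1 at 0. The 3 regulatory T cell markers summed to 8.51 to 9.93 before and to 104 to 129 after stimulation. Most of the later sum came from Il2ra, which activated T cells also express. Foxp3 lay between 4.48 and 7.69. Foxp3 rose by 0.68 in Cd offspring (limma adjusted p = 0.0011), while its 0.41 in control offspring (adjusted p = 0.01375) missed the threshold. The T cell, B cell, myeloid, CD8 and NK and regulatory sums moved with stimulation without overlap, as did several members described here. The part of cell composition in the results was not tested. RPKM are shares of a library, so that fewer cells of a type and less RNA per cell cannot be told apart.

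Stimulation was the condition under which the network changed. Each difference was tested with limma on log2(RPKM + 0.1) over all genes, and a call needed an adjusted p below 0.01 together with a change over 2-fold. In control offspring 2 of the 9 members tested were called higher, Myc and Pvt1, against 11.5% of all genes tested. A single member, Mxd4, was called lower, against 7.17% of all genes. At an adjusted p under 0.01 whatever the fold, 3 members rose (Myc, Pvt1 and Max), against 29.9% of all genes, and 4 fell (Mxd1, Mxd4, Mnt and Mlx), against 21.8%. These shares of 9 genes were not far from the background, and the result lies in which members moved in which direction. The median log2 fold change over the 9 members was -0.32, beside 0.07 over all genes tested. The count of members at any fold was lower without the unstimulated control library 7 and also without the stimulated control library 6. In both settings the count over all genes tested was lower too.

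**Figure D1:**
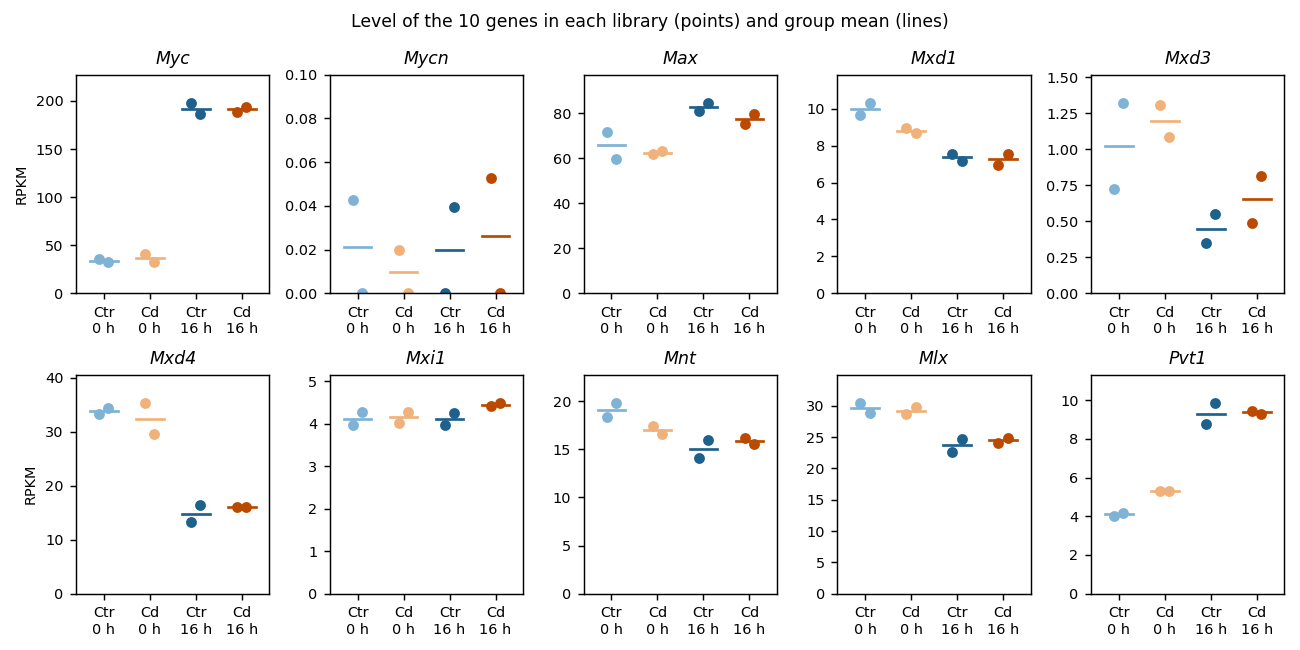
Level in RPKM (y axis, from 0, a scale of its own for each gene) of the 10 genes in the 4 groups, with 1 point for each of the 8 libraries and a line at the group mean. The stimulated (16 h) points of Myc and Pvt1 lie above all unstimulated (0 h) points, those of Mxd1, Mxd4, Mnt and Mlx lie below them, and Mycn is at most 0.0526 RPKM.

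The activators came first. Myc stood at 35.9 and 32.3 RPKM in the unstimulated control libraries and at 197.8 and 186.5 in the stimulated ones. In Cd offspring it stood at 41.1 and 32.2 RPKM unstimulated and at 188.6 and 194.1 stimulated. Every stimulated library was thus far above every unstimulated one, and within each state the libraries of control and Cd offspring overlapped. The rise was 5.63-fold in control offspring (log2 fold change 2.49, SE 0.11, limma adjusted p = 1.44e-06) and 5.25-fold in Cd offspring (2.39, SE 0.11, adjusted p = 1.80e-06). Of the genes tested 206 had a larger fold change in control offspring and 224 in Cd offspring. By level Myc moved from place 2236 among the genes tested to place 248 in control offspring, and from 2001 to 253 in Cd offspring. Counted in reads, Myc had 1264 to 1914 per library before and 7376 to 11870 after stimulation.

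Mycn, a paralog of Myc known mostly from developing tissues, had 8 reads in the 8 libraries together, with 0 to 3 in any library. Each library's value lay at or under the level of 3 reads, which is 0.0454 to 0.0744 RPKM depending on depth, so that no fold change is given.

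Max, the common partner, was the most abundant member in every unstimulated library, at 71.7 and 59.8 RPKM in control libraries, and 62.1 and 63.0 in Cd offspring. After stimulation it stood at 81.0 and 84.5 RPKM in control libraries, and 75.2 and 79.8 in Cd offspring. The stimulated values were higher than the unstimulated ones in all libraries, by a much smaller step than for Myc. The log2 fold change was 0.34 (SE 0.08, adjusted p = 0.0086) in control offspring and 0.31 (SE 0.08, adjusted p = 0.0128) in Cd offspring, by limma. That p in control offspring ranged from 0.00147 to 0.034 over the other settings of the test and from 0.00112 to 0.0494 with a library left out, so the rise of Max depended on the setting, and in Cd offspring it missed the threshold but reached 0.00223 with voom. Myc passed Max in level: the ratio of Myc to Max was 0.50 to 0.66 in unstimulated and 2.21 to 2.51 in stimulated libraries.

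Among the repressors Mxd4 had the largest change that passed the test. Its level was 33.3 and 34.5 RPKM in unstimulated and 13.3 and 16.4 in stimulated control libraries. In Cd offspring the values were 35.3 and 29.5 RPKM before and 16.0 and 16.1 after stimulation. No stimulated library reached the lowest unstimulated one. The fall was 2.29-fold in control offspring (log2 fold change -1.19, SE 0.11, limma adjusted p = 6.08e-05). In Cd offspring it was 2.003-fold (-1.002, SE 0.11, adjusted p = 0.000157), which lies at the 2-fold limit, and without the Cd library 6 of unstimulated cells the log2 fold change was -0.87.

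Mxd1, a repressor known for its rise in differentiating cells, had 9.66 and 10.3 RPKM in unstimulated and 7.54 and 7.19 in stimulated control libraries. In Cd offspring it had 8.92 and 8.68 RPKM before and 6.97 and 7.54 after. Groups did not overlap between the 2 states. Mxd1 fell by 0.43 on the log2 scale in control offspring (SE 0.08, limma adjusted p = 0.00181). In Cd offspring the difference of -0.28 (SE 0.08, adjusted p = 0.0155) missed the threshold, although it passed with voom, median-of-ratios scaling and quantile normalization (adjusted p 0.00397 to 0.0418 over the other settings). In control offspring Mxd1 passed in every other setting and had an adjusted p of up to 0.0153 with a library left out.

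Mnt, the repressor found in most cell types, had 18.3 and 19.8 RPKM in unstimulated and 14.1 and 15.9 in stimulated control libraries. In Cd offspring the values were 17.4 and 16.6 RPKM before and 16.2 and 15.5 after. The states were separate in both, with a narrow gap in Cd offspring. Mnt fell by 0.34 on the log2 scale in control offspring (SE 0.08, limma adjusted p = 0.00567), with an adjusted p of 0.0011 to 0.0132 over the other settings and 0.00525 to 0.0412 with a library left out. In Cd offspring the difference was -0.10 (95% interval -0.28 to 0.08, adjusted p = 0.298).

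The other repressors gave less. Mxi1 lay between 3.97 and 4.48 RPKM in all libraries, with log2 differences of -0.0017 (95% interval -0.23 to 0.23) in control and 0.10 (-0.13 to 0.33) in Cd offspring. Mxd3 rested on 7 to 33 reads a library. Its RPKM were 0.728 and 1.32 unstimulated and 0.347 and 0.554 stimulated in control offspring, and the log2 difference of -1.01 had a wide interval (-1.85 to -0.16) and an adjusted p of 0.0415 in limma, above the threshold. In Cd offspring the difference was -0.81 (-1.66 to 0.03, adjusted p = 0.0819). The gene overlaps Prelid1 in the annotation, and the sources used here do not state whether reads were counted by strand, so that reads of either gene cannot be told apart where they overlap. Mxd1 and Mxi1 each overlap a predicted lncRNA and Mlx overlaps Psmc3ip, with the same limit.

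Mlx had 30.4 and 28.8 RPKM in unstimulated and 22.7 and 24.7 in stimulated control libraries. In Cd offspring it had 28.7 and 29.8 RPKM before and 24.1 and 24.9 after. The 4 stimulated libraries were below the 4 unstimulated ones. Mlx fell by 0.32 on the log2 scale in control offspring (SE 0.06, limma adjusted p = 0.00259) and by 0.25 in Cd offspring (SE 0.06, adjusted p = 0.00785), in both under 2-fold. These calls depended on the setting. The adjusted p in control offspring was 0.000321 to 0.0102 over the other settings and 0.00323 to 0.0215 with a library left out, and in Cd offspring 0.00066 to 0.0231 and 0.00867 to 0.0513.

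**Figure D2:**
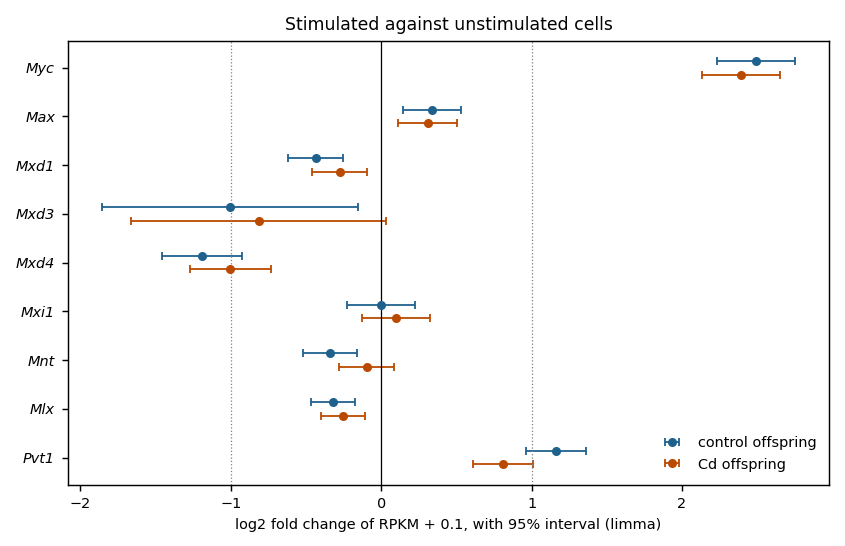
Log2 fold change of stimulated against unstimulated cells (x axis, RPKM + 0.1) for the 9 members tested, with 95% intervals from limma, in control (blue) and Cd (orange) offspring; dotted lines mark 2-fold. Myc lies near 2.49 and 2.39, Pvt1 near 1.16 and 0.81 and Mxd4 near -1.19 and -1.002, while the intervals of Mxi1 cover 0.

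The balance of the partners of Max was taken as the share of Myc in the summed RPKM of Myc, Mycn, Mxd1, Mxd3, Mxd4, Mxi1 and Mnt. In unstimulated libraries Myc held 35.2% and 31.6% of this sum in control libraries, and 38.0% and 34.8% in Cd offspring. After stimulation it held 83.5% and 80.8% in control libraries, and 81.0% and 81.4% in Cd offspring. The repressors held the larger share in all unstimulated libraries and Myc in all stimulated ones. The mean difference was 46.7 percentage points, 48.7 in control and 44.8 in Cd offspring alone, with an exact two-sided permutation p of 0.0556, the smallest that permuting stimulation within exposure allows, so that this design could not pass 0.05.

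Both sides of this balance differed between states. The repressors among the members together summed to 60.2 to 70.1 RPKM in unstimulated and 39.2 to 44.5 in stimulated libraries, a smaller step than that of Myc. Within them Mxd4 made up 49.1% to 52.7% of the sum before and 33.8% to 37.0% after, and Mnt 26.0% to 28.2% before and 34.9% to 36.8% after, so that Mxd4 and Mnt went from unequal to nearly equal shares. The 7 members in the sum together came to 1.42 to 1.74 times the level of Max before and to 2.73 to 3.09 times after. Mga, which also pairs with Max, was at 20.95 to 24.76 RPKM and is in none of these sums and shares. These are transcript levels, and protein and dimers were not measured.

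**Figure D3:**
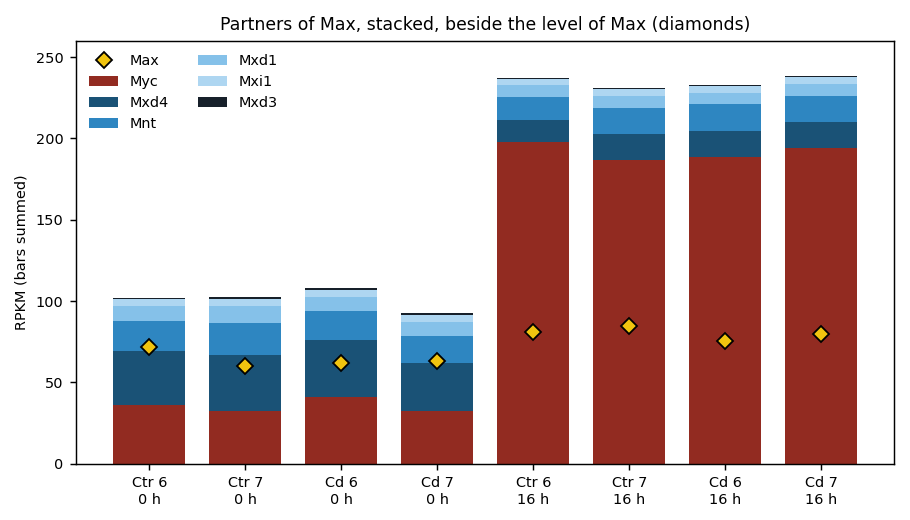
Summed RPKM (y axis, from 0) of Myc, Mxd4, Mnt, Mxd1, Mxi1 and Mxd3 as stacked bars, 1 for each of the 8 libraries, with the level of Max as diamonds. The bars reach 92.3 to 108.0 RPKM at 0 h and 231 to 239 at 16 h, and Max stays between 59.8 and 84.5.

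Pvt1 lies downstream of Myc. In GRCm38 the Myc gene occupies chr15:61985341-61990361 and Pvt1 chr15:62037986-62260215, with 47.6 kb between the end of Myc and the start of Pvt1. Levels of Pvt1 were 3.997 and 4.19 RPKM in unstimulated and 8.75 and 9.83 in stimulated control libraries. In Cd offspring they were 5.33 and 5.29 before and 9.44 and 9.30 after stimulation. From low to high the groups ran from unstimulated control to unstimulated Cd to the stimulated groups, and those last 2 overlapped. Pvt1 rose 2.24-fold in control offspring (log2 fold change 1.16, SE 0.09, limma adjusted p = 1.61e-05) and 1.75-fold in Cd offspring (0.81, SE 0.09, adjusted p = 0.000108). It passed Mxd1 in level, being below it in all unstimulated and above it in all stimulated libraries.

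Myc and Pvt1 both rose, but not in proportion. For every 100 RPKM of Myc there were 11.2 and 12.97 RPKM of Pvt1 in unstimulated control libraries and 12.97 and 16.5 in those of Cd offspring. After stimulation there were 4.42 and 5.27 in control libraries, and 5.01 and 4.79 in Cd offspring. The log2 ratio of Pvt1 to Myc was lower by 1.45 in stimulated cells on average, with no overlap between states. The exact two-sided permutation p was 0.0556, again the smallest the arrangement allows. No correlation is given, since the 8 libraries form 2 clusters by stimulation.

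**Figure D4:**
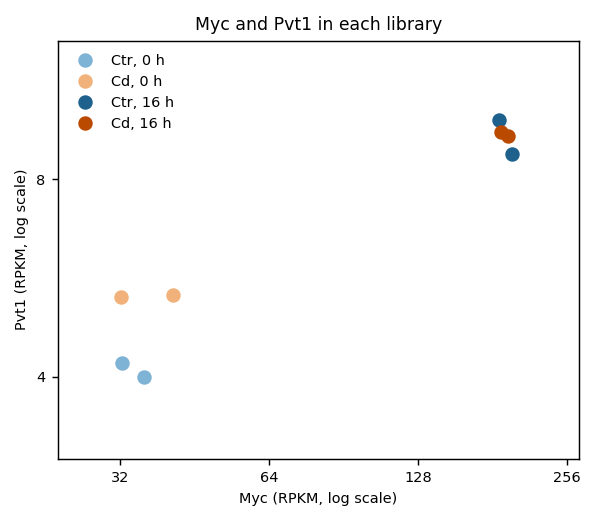
Pvt1 (y axis) against Myc (x axis) in RPKM, both on log scales, 1 point for each library. The 0 h libraries lie at 32.2 to 41.1 for Myc and 3.997 to 5.33 for Pvt1, the 16 h libraries at 186.5 to 197.8 and 8.75 to 9.83.

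The surrounding genes were read from the 19 rows of the table that start within 2 Mb of Myc, members included. Of these 10 were at 0 in all libraries and 7 were tested. Cyrib, a regulator of the actin cytoskeleton, had a mean of 40.3 RPKM and a log2 difference of -0.0044 on stimulation in control offspring (adjusted p = 0.954), and Lratd2 one of -0.11 (adjusted p = 0.375). The lncRNA 9930014A18Rik, with a mean of 0.722 RPKM, rose by 1.79 (adjusted p = 0.00301), and Gsdmcl-ps had a difference of -0.82 (adjusted p = 0.0776), both by limma. In Cd offspring Gsdmcl-ps fell by 1.82 (adjusted p = 0.00292) and 9930014A18Rik rose by 1.58 (adjusted p = 0.00558), while Lratd2 (-0.30, adjusted p = 0.0374) and Cyrib (-0.05, adjusted p = 0.502) missed the threshold. Macroh2a3, a transcribed pseudogene inside the span of Pvt1, had a mean of 1.82 RPKM. It rose by 1.28 on the log2 scale in control offspring (limma adjusted p = 0.00143), while its 0.65 in Cd offspring (adjusted p = 0.0316) missed the threshold. Reads of Macroh2a3 and Pvt1 cannot be told apart where they overlap.

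The genes closest in profile were found among 8674 tested genes with a mean of at least 5 RPKM by the root mean square difference of centred log2 values over the 8 libraries. Those closest to Myc were Ppa1, Shmt2, Gcsh, Gsto1 and Myo1c, at distances of 0.060 to 0.099. Shmt2 encodes the mitochondrial serine hydroxymethyltransferase and Gcsh a subunit of the glycine cleavage system. Those closest to Pvt1 were Ccdc137, Ubfd1, Uchl4, Ahsa1 and Ndc1, at distances of 0.065 to 0.078. Pvt1 and Myc themselves were 0.745 apart. The pairs named were picked as the smallest distances, so they do not show whether 0.745 is large.

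Genes that act with or below the network were taken from lists. Of 30 genes known to be activated by Myc, 27 were called higher in stimulated cells of control offspring, against 11.5% of all genes. In Cd offspring 26 were called higher, against 11.4% of all genes. None was called lower in control or Cd offspring, against 7.17% and 7.24% of all genes. The median log2 fold changes were 1.36 in control and 1.37 in Cd offspring, beside 0.07 and 0.05 over all genes. Hexokinase 2 (Hk2) rose by 5.67, the transferrin receptor gene Tfrc by 2.75 and the spermidine synthase gene Srm by 2.59 in control offspring. Slc2a1, a glucose transporter gene, had 12.9 ± 0.881 RPKM before and 11.4 ± 1.42 after stimulation (SD, n = 2). Slc3a2 and Eif4a1 rose by less than 2-fold (0.38 and 0.45 on the log2 scale). Many of these genes are also known to rise in proliferating cells with or without Myc, and the part of Myc in their rise was not tested.

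Of 6 tested genes known to be repressed by Myc, 1 was called higher and 1 lower in control offspring, against 11.5% and 7.17% of all genes. The same counts were found in Cd offspring, against 11.4% and 7.24%. At an adjusted p under 0.01 at any fold, 2 rose and 2 fell in control offspring, against 29.9% and 21.8% of all genes. Likewise 2 rose and 2 fell in Cd offspring, against 30.2% and 22.3%. The cell cycle inhibitor gene Cdkn1a was the gene called higher, from 0.488 ± 0.048 to 20.1 ± 1.79 RPKM in control offspring (log2 fold change 5.10, SD, n = 2). Gadd45a, a stress response gene, fell from 12.2 ± 0.143 to 1.83 ± 0.388 RPKM (-2.69, SD, n = 2). The median over the 6 was -0.40 in control and -0.02 in Cd offspring.

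Of 13 cofactor genes of Myc 3 were called higher in control offspring, against 11.5% of all genes, and none lower, against 7.17%. The 3 were the ATPase genes Ruvbl1 (1.58) and Ruvbl2 (1.49) and the chromatin reader gene Wdr5 (1.05). In Cd offspring 2 were called higher, against 11.4% of all genes, and none lower, against 7.24%. There Wdr5 (0.997) lay just under the 2-fold limit. Of 10 corepressor genes of Mxd and Mnt 2 were called higher in control offspring, against the same 11.5%. They were Sap30 (1.4) and Rbbp7 (1.18), both parts of Sin3 complexes. In Cd offspring 2 were called higher, against 11.4% of all genes. None of 10 genes for the turnover of the Myc protein was called in either direction by limma at the 2-fold limit. The shares of all genes were 11.5% higher and 7.17% lower in control offspring. At an adjusted p under 0.01 at any fold 4 rose and 4 fell in control offspring, against 29.9% and 21.8% of all genes. In Cd offspring 4 rose and 4 fell too, against 30.2% and 22.3%. Mlxip, the partner of Mlx, rose by 0.32 in control (limma adjusted p = 0.000981) and 0.34 in Cd offspring (adjusted p = 0.000638), both under 2-fold. Mga, which also pairs with Max, had a difference of 0.17 in control (limma adjusted p = 0.0525) and -0.04 in Cd offspring (adjusted p = 0.626). Mlxipl and Mycl stayed under 0.03 RPKM in all libraries and were not tested. Txnip, a target of Mlx dimers that limits glucose uptake, fell from 308 ± 5.85 to 70.7 ± 1.86 RPKM in control offspring (-2.12, SD, n = 2). Arrdc4, the other target listed, went the other way but was too low to be tested, with a mean of 0.444 RPKM over all libraries. It had 0.217 ± 0.11 RPKM before and 0.802 ± 0.086 after in control offspring (SD, n = 2). In Cd offspring it had 0.182 ± 0.091 and 0.575 ± 0.113.

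Cd offspring were compared with control offspring in each state. In stimulated Cd offspring against their own unstimulated cells, 1 of the 9 members was called higher, Myc, against 11.4% of all genes, and 1 lower, Mxd4, against 7.24%. At any fold 2 rose (Myc and Pvt1), against 30.2% of all genes, and 2 fell (Mxd4 and Mlx), against 22.3%. The count of calls at 2-fold was 1 instead of 2 without the Cd library 6 of either state, since Mxd4 then lay just under the limit. Fewer calls than in control offspring do not show a smaller response, and the responses were compared directly with an interaction contrast.

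In unstimulated cells limma called no member for a Cd difference (adjusted p below 0.05), against 0.896% of all genes. Voom on the recovered reads called none either, and 1 member had an unadjusted p under 0.05. That member was Pvt1, where both Cd libraries (5.33 and 5.29 RPKM) lay above both control libraries (3.997 and 4.19). The difference was 0.37 on the log2 scale (SE 0.09, 95% interval 0.17 to 0.57), and its adjusted p of 0.143 by limma missed the threshold. Its adjusted p was 0.126 to 0.413 over the other settings and 0.143 to 0.459 with a library left out, and the difference stayed between 0.31 and 0.40 in all settings and with any library left out. Macroh2a3 inside Pvt1 showed 0.85 (adjusted p = 0.172).

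For Myc in unstimulated cells the Cd effect was 0.09 with an interval of -0.16 to 0.35, and changes within that interval were not detectable with these libraries. Mxd1 (-0.18, interval -0.36 to 0.0039) and Mnt (-0.16, interval -0.34 to 0.02) had intervals that reached just past 0. Among the listed genes Fbl, which is activated by Myc and encodes the nucleolar fibrillarin, was lower in unstimulated Cd offspring, at 24.04 ± 1.56 against 33.5 ± 0.056 RPKM (log2 -0.48, adjusted p = 0.0185). It was 1 of 30 genes known to be activated by Myc, against 0.896% of all genes called, and the other 29 were not called. The median log2 difference of the 30 was -0.018, beside 0.0065 over all genes. The activation gene Il2 was also lower, at 0.290 ± 0.026 against 0.610 ± 0.131 RPKM (SD, n = 2, log2 -0.86, limma adjusted p = 0.0409). Of the 4 activation markers 1 was called, Il2, and 3 were not, with a median log2 difference of -0.17. Il2ra (0.14) and Tfrc (0.05) lay above 0.

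In stimulated cells 0 members were called by limma, with 0% of all genes called, 0 members at an unadjusted p under 0.05 and 0 called by voom. Myc differed by -0.0057 on the log2 scale with an interval of -0.26 to 0.25. Pvt1 differed by 0.01 with an interval of -0.19 to 0.22. The widest interval was that of Mxd3, at 0.44 (-0.41 to 1.29), where few reads were counted.

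The response itself was compared as the difference between the stimulation effects of Cd and control offspring. No member was called at an adjusted p under 0.05 by limma or voom, against 0.357% of all genes, and 1 member, Pvt1, had an unadjusted p under 0.05. The response of Pvt1 was smaller by 0.35 in Cd offspring (95% interval of the difference -0.64 to -0.07, limma adjusted p = 0.372), a value that rests on the same unstimulated libraries as the Cd difference just given for Pvt1. For Mnt the difference was 0.24 (-0.01 to 0.50, adjusted p = 0.484) and for Myc -0.10 (-0.46 to 0.26, adjusted p = 0.83). Of the genes in the lists none was called by limma for a difference in response, although 1332 of all genes tested had an unadjusted p under 0.05.

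**Figure D5:**
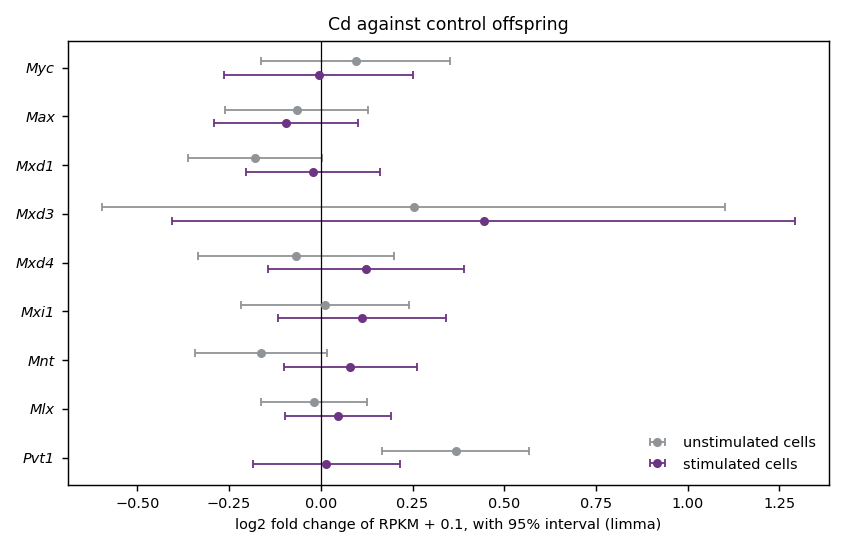
Log2 fold change of Cd against control offspring (x axis, RPKM + 0.1) for the 9 members tested, with 95% intervals from limma, in unstimulated (grey) and stimulated (purple) cells. The interval of Pvt1 in unstimulated cells (0.17 to 0.57) lies above 0, and all others include 0.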

How the data were processed

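The labels gave each library its group. Per the authors' notes, Subread placed the reads on mm10 and featureCounts assigned them to RefSeq transcripts. Versions, strand setting and the handling of reads with several matches are not given in the sources used here. The deposited values are log2(RPKM + 1) + 0.0001, a scale read from the values, and were turned back to RPKM. Whole reads, and with them the depth of each library, were worked out from the spacing of the values for all 17794 genes above 0 in at least 2 libraries.

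A gene was tested if its RPKM averaged at least 0.5 across the 8 libraries. The log2(RPKM + 0.1) values entered 1 limma fit (limma 3.58.1, R 4.3.3) of 4 group means, using the empirical Bayes option with a mean-variance trend. Benjamini-Hochberg adjustment ran over all 12605 genes. A fold change on this scale understates the change of low genes. A stimulation call needed an adjusted p below 0.01 and over 2-fold change, while for Cd effects and the difference in response an adjusted p below 0.05 was enough. The count at any fold was added after seeing the data. The share of Myc and the ratio of Pvt1 to Myc were compared by exact two-sided permutation of stimulation within exposure (36 arrangements). The fits were checked on simulated data. Alternatives were other pseudocounts, filters and scalings, a replicate block, no trend, only the libraries compared, voom on recovered reads and each library left out.

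Members, lists and tests were chosen with earlier results of these data known. All members are named. Of each list, up to 3 genes with the largest rise and up to 3 with the largest fall among those called in control offspring at a mean of at least 5 RPKM are named, with the extended network in full, all tested neighbours of Myc and the 5 closest profiles. Slc2a1, Slc3a2, Eif4a1, Fbl, Il2 and Arrdc4 were named after their values were seen. Itgam, Cd8b1, Klrb1c and Cd79a were too, and 1 marker gene is not reported here. Coordinates of genes follow RefSeq GRCm38.p6, to which 25275 gene identifiers matched. Python 3.11.15 with pandas 2.3.3, numpy 2.4.6 and matplotlib 3.10.9 served for tables and plots.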

Additional observations from a re-analysis of the deposited data

How the results depend on the processing

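Depth limits Mycn and Mxd3 most, with 2 libraries a group. The 3 members called for stimulation in control offspring stayed 3 in every setting tried. In Cd offspring the count was 1 with pseudocounts of 0.5 and 1 and 1 to 2 with a library left out, because Mxd4 lay at the 2-fold limit (log2 -0.98 and -0.96 with those pseudocounts, and -1.13 to -0.87 with a library left out). The count at any fold in control offspring was 4 to 6 with a library left out. With stimulation permuted over all libraries, the ratio of Pvt1 to Myc (-1.45) and the share of Myc (46.7 points) had exact permutation p-values of 0.0286. That is the smallest that the 70 arrangements allow. Libraries with the same number did not deviate together (correlations -0.0414 to 0.0635 in 4 pairs). With the replicate block the counts called were 3 and 2, and those at any fold 5 and 3. The exact permutation p of both measures was then 0.125, the smallest that its 16 arrangements allow. Directions that turned belonged to differences that passed no test, and the cause was not tested. Mxi1 on stimulation in control offspring was 0.0054 with voom and -0.055 to 0.052 with a library left out. Mxi1 between Cd and control in unstimulated cells was -0.0052 with median-of-ratios scaling and -0.0070 with quantile normalization, and Myc in stimulated cells 0.0065 with median-of-ratios scaling. With a library left out, the Cd difference in unstimulated cells ran from -0.20 to 0.065 for Max, -0.14 to 0.64 for Mxd3, -0.042 to 0.065 for Mxi1, -0.057 to 0.021 for Mlx, -0.081 to 0.27 for Myc and -0.20 to 0.058 for Mxd4. In stimulated cells it ran from -0.048 to 0.037 for Myc, -0.079 to 0.034 for Mxd1, -0.030 to 0.27 for Mxd4, -0.0059 to 0.17 for Mnt, -0.014 to 0.11 for Mlx and -0.069 to 0.098 for Pvt1. The difference in response ran from -0.16 to 0.10 for Max, -0.20 to 0.58 for Mxd3 and -0.28 to 0.076 for Myc.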
